A study of Mus musculus with 9 samples.

Results

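The growth cone mRNAs described here encode 9 proteins of the motile tip of growing axons: the MARCKS-type membrane proteins Marcks, Marcksl1, Gap43 and Basp1, the stathmins Stmn1 and Stmn2, the tubulin-binding protein Dpysl2, and the adhesion proteins Ncam1 and Cntn1. They were chosen by gene symbol, and they make up 9 of the 11618 genes with a transcript tag in the series; all 9 had at least 1 tag. The study mapped RNA bound by FMRP, the protein lost in fragile X syndrome, and RNA bound by the neuronal Hu proteins, by HITS-CLIP. In this method ultraviolet light fixes protein to RNA. An antibody then pulls down the protein with its attached RNA pieces, whose reads are called tags. Polyribosomes came from cortex and cerebellum of FVB mice, with cycloheximide present, and each library is 1 pool of littermates. The labels describe wild type and Fmr1Tm1Cgr littermates for the first protocol; libraries from Fmr1-null mice were not analysed here.

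There are 4 groups. FMRP was taken with the mixed monoclonal antibodies 7G1-1 and 2F5 at P14, P15 and P25 (postnatal days) and with the polyclonal antibody ab17722 at P14 and P25, both after dissociation in 1% SDS and with 454 sequencing. FMRP was taken with ab17722 at P11 and P13 after dissociation in 2% SDS and with Illumina sequencing. Hu proteins were taken with a human antiserum from the same P11 and P13 lysates, which had been divided between both antibodies. The antiserum does not separate one Hu protein from another. Transcript tags per library ran from 4397 to 7713 in the 5 454 libraries and from 25873 to 49847 in the 4 Illumina libraries, so that 3 tags, the limit that a count of 0 allows, correspond to 682.3 CPM (tags scaled to an equal library total) in the smallest library and to 60.18 in the largest. Intervals and limits cover counting error only.

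A growth cone steers an axon by remodelling actin and microtubules beneath an adhesive membrane. MARCKS-type proteins are acylated, calmodulin-binding proteins of the inner face of the membrane, stathmins bind free tubulin, Dpysl2 (CRMP2) helps tubulin assemble, and Ncam1 and Cntn1 are immunoglobulin-type adhesion molecules. Hu proteins bind U-rich and AU-rich stretches, mostly in 3′ untranslated regions, and stabilise many of their mRNAs; Gap43 is a textbook target of the Hu protein HuD. FMRP is a polyribosome-associated repressor of translation.

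As a set, these mRNAs were a larger part of the Hu libraries than of any FMRP library. Together the 9 mRNAs took 1.56% of the transcript tags of the P11 Hu library (404 tags) and 0.937% of the P13 Hu library (467 tags). They took 0.164% of the P11 FMRP library (44 tags), 0.218% of the P13 FMRP library (96 tags) and between 0.0711% and 0.182% of the 454 FMRP libraries. The groups did not overlap. The Hu total came mainly from 3 mRNAs, Ncam1, Dpysl2 and Marcks. For Marcks and Ncam1 the direction was known when the members were chosen, so the total is a description and no independent support. The share of all genes whose groups separate in this way was not counted, either for this total or for the single mRNAs below. With 2 libraries against 2, an exact two-sided permutation test cannot give a p below 0.333, so differences between the antibodies rest on a model fitted across all genes.

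**Figure D1:**
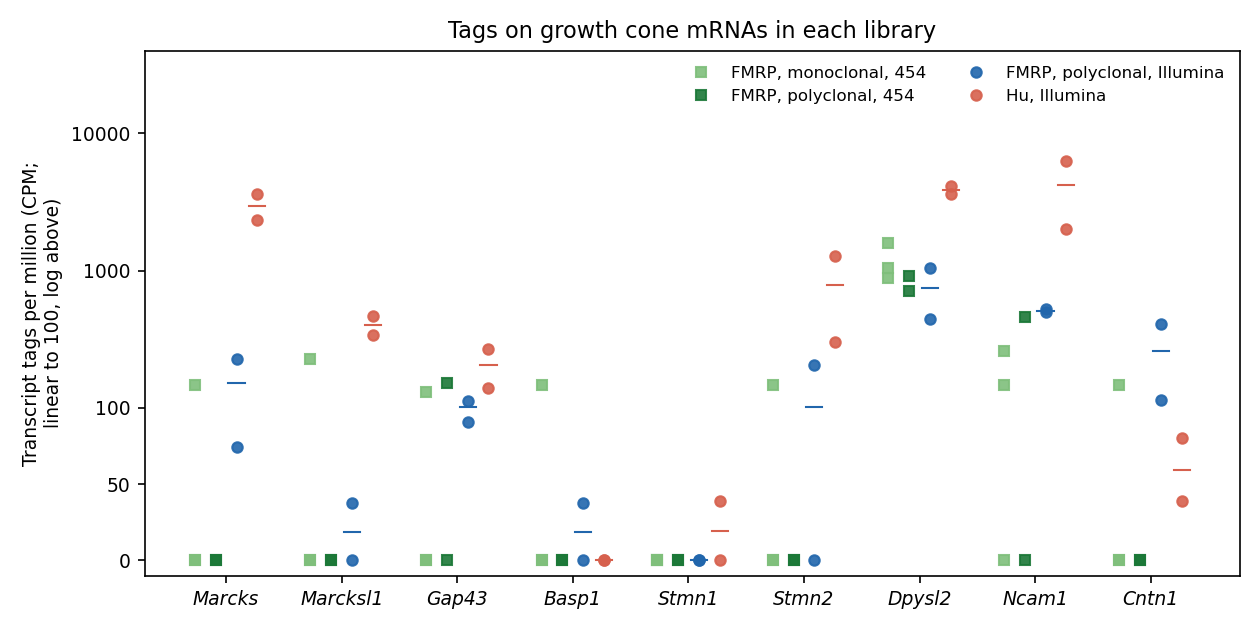
CPM of transcript tags for each growth cone mRNA (columns) in each of the 9 libraries (points, coloured by antibody and platform), on an axis that is linear to 100 and logarithmic above; short lines are the means of 2 Illumina libraries. Both Hu points of Marcks (3594 and 2347) and Dpysl2 (3594 and 4133) lie above every FMRP point of the same mRNA, and Cntn1 has its Hu points (38.65 and 80.25) below both Illumina FMRP points.

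In edgeR's quasi-likelihood test over the 4 Illumina libraries, 5 of the 9 mRNAs passed the filter on low counts, and 4 of them (Marcks, Marcksl1, Dpysl2 and Ncam1) were called higher in Hu at an adjusted p under 0.05, with 0 called higher in FMRP. DESeq2 called 3 of them higher in Hu. All 5 tested mRNAs had a log2 FMRP over Hu below 0, here and in every alternative setting that tested them. Among all 1015 genes tested, 277 (27.3%) were called higher in Hu and 341 (33.6%) higher in FMRP. Marcks, Marcksl1 and Stmn2 reached the filter's minimum of 282.2 CPM in both Hu libraries and in neither FMRP library, so they passed only through the antibody in which they were high, and the count of called members is a description that supports nothing by itself. Dpysl2 and Ncam1 reached the minimum in both libraries of each antibody. Gap43, Basp1, Stmn1 and Cntn1 did not pass the filter and have no test. These p-values reflect only how the compared libraries vary, which may be technical, and a relative rise in one antibody's tags cannot be told apart from a fall of other mRNAs in the same library. Both antibodies were given parts of the same lysates. Between lysates, fewer cells of a type cannot be told apart from less RNA per cell.

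Markers of cell types moved with the antibody too. Summed CPM of 7 neuron markers, all of them with tags, was 1479 to 5156 in the FMRP libraries and 6300 to 10250 in the Hu libraries. For 6 oligodendrocyte markers, all with tags, it was 298.6 to 2382 and 5334 to 11840, and for 6 astrocyte markers (Gja1 at 0) 533.3 to 1945 and 77.3 to 240.7. Microglia had 1 of 6 markers with tags (Cx3cr1, C1qa, C1qb, C1qc and Trem2 at 0), endothelium 3 of 5 (Cldn5 and Slco1a4 at 0) and red blood cells 4 of 5 (Hbb-b1 at 0). Their part in the result was not tested.

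**Figure D2:**
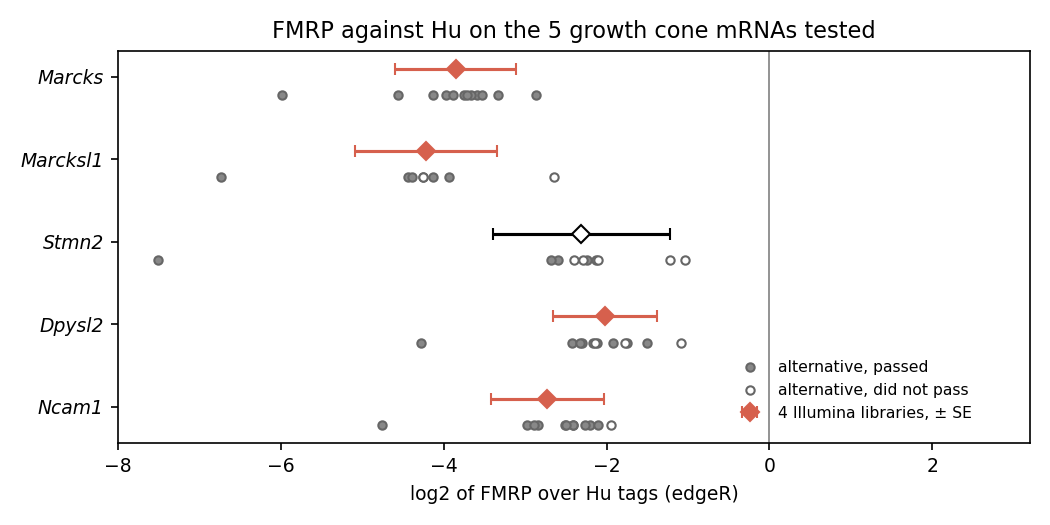
Log2 of FMRP over Hu tags (horizontal axis) for the 5 growth cone mRNAs tested, as the estimate from 4 Illumina libraries with its standard error (diamonds, filled where the adjusted p was under 0.05) and as estimates from alternative settings (circles, filled where the adjusted p was under 0.05). All estimates lie below 0, and Marcks passed in 12 of 12 alternatives.

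Marcks, a protein kinase C substrate that binds actin and the plasma membrane, gave 93 tags in the P11 Hu library and 117 in the P13 Hu library. It gave 2 tags in the P11 FMRP library, 10 in the P13 FMRP library, and 1 tag in all 5 454 libraries together, that of the P15 library. In CPM these are 3594 and 2347 for Hu against 74.64 and 226.9 for FMRP on Illumina, and the groups did not overlap. By mean CPM, Marcks ranked 17 among all genes in the Hu libraries and 1537 in the Illumina FMRP libraries. Its log2 FMRP over Hu was -3.86 (SE 0.74, adjusted p = 0.00281, edgeR), and the summed Hu level was 16.4 times the FMRP level (95% counting interval 9.18 to 32.2). Genomic tags inside the gene bounds gave a smaller ratio, 8.35 (4.93 to 15.2). Within the P13 lysate alone the ratio was 10.4, and at P11 it rests on 2 FMRP tags.

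Hu tags on Marcks were spread unevenly. In the 100 nt from 1848 to 1948 of its transcript lay 61 of 210 Hu tags (29.05%), 24 of 93 in the P11 library and 37 of 117 in the P13 library, from 13 and 26 start positions. FMRP had 0 of 2 tags there at P11 and 1 of 10 at P13. Over 272 transcripts with at least 50 Hu tags, the median share in the fullest window was 29.0% (quartiles 20.7% to 43.39%), so the pile on Marcks was of ordinary size. Its place repeated: the window fullest at P11 held 26.9% of the P11 tags and 23.1% of the P13 tags. Further piles lay at 1357 to 1457 nt (31 tags) and at 1473.5 to 1573.5 nt (29 tags). The gene lies at chr10:36853049-36858732 (mm9).

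Marcksl1, the smaller relative of Marcks, had fewer tags. It gave 12 and 17 tags in the P11 and P13 Hu libraries and 1 and 0 in the matching FMRP libraries, with 1 tag in the P14 monoclonal library and 0 in the other 454 libraries. The Hu levels of 463.8 and 341.0 CPM lay above both Illumina FMRP levels (37.32 and 0), while the 454 libraries are too shallow to set beside them. Log2 FMRP over Hu was -4.22 (SE 0.87, adjusted p = 0.00388, edgeR). It was tested only because its Hu level passed the filter, and the fold rests on 1 FMRP tag: the counting interval of the Hu over FMRP ratio of 27.1 ran from 4.50 to 1109, and genomic tags gave 10.6 (1.63 to 446.8). Without the P11 Hu library the adjusted p was 0.093 and without the P13 FMRP library 0.163. Its windows did not repeat, since the window fullest at P11 held 41.7% of P11 tags and 5.88% of P13 tags, and the one fullest at P13 held 64.7% and 0%. The gene lies at chr4:129190888-129193219 (mm9).

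Gap43 encodes the neuronal growth-associated protein for which the growth cone is best known, and it had few tags with either antibody. Its Hu tags numbered 7 and 7, its Illumina FMRP tags 3 and 4, and its 454 tags 0 or 1 per library (1 in the P14 polyclonal library and 1 in the P25 monoclonal library). The Hu levels were 270.6 and 140.4 CPM and the FMRP levels 112.0 and 90.75. The Hu over FMRP ratio of 1.87 had a counting interval of 0.707 to 5.48, which includes equality. In the settings that kept Gap43 for the test, its log2 was -0.84 with no filter (adjusted p = 0.701, edgeR) and -0.30 without the P11 FMRP library (adjusted p = 0.897). In the authors' deposited table the exon array intensity of Gap43 was 3716, above that of 99.77% of 18848 genes, and its log2 value in neurons was 12.0. These values come from separate measurements with no replicates in that table, and their relation to the tags was not tested. Of the 14 Hu tags on Gap43, 10 lay between 1186 and 1286 nt (71.43%), 3 of 7 at P11 and 7 of 7 at P13. The window fullest at P11 held 57.14% of P11 tags and 28.57% of P13 tags. Gap43 lies at chr16:42248674-42340764 (mm9).

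Basp1, a myristoylated membrane protein related in function to Gap43, had Hu tags in the genomic lists and none in the transcript lists. The transcript lists gave 0 Hu tags in each library, 1 FMRP tag at P11, 0 at P13, and 1 in the P15 454 library. The genomic lists, over both lines the authors' table gives for this symbol, held 18 and 30 Hu tags and 2 and 8 FMRP tags on the same strand. The bounds of its first line, chr15:25293984-25294664 (mm9), are 681 nt wide, which is the deposited coding length, and 47 of the 48 Hu tags (97.92%) lay past their 3′ end. So did 1 of 2 and 8 of 8 FMRP tags. The Hu tags gathered in one place, with 31 of 47 (65.96%) at 512.5 to 612.5 nt past the coding end, chr15:25293372-25293470, 8 of them at P11 and 23 at P13; FMRP had 0 and 2 there. The genomic Hu over FMRP ratio was 3.40 (counting interval 1.70 to 7.53), over a span that was fixed after the values were seen, and it has no test. The tags past the coding end are not among the transcript tags on which the comparison with all genes rests.

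**Figure D3:**
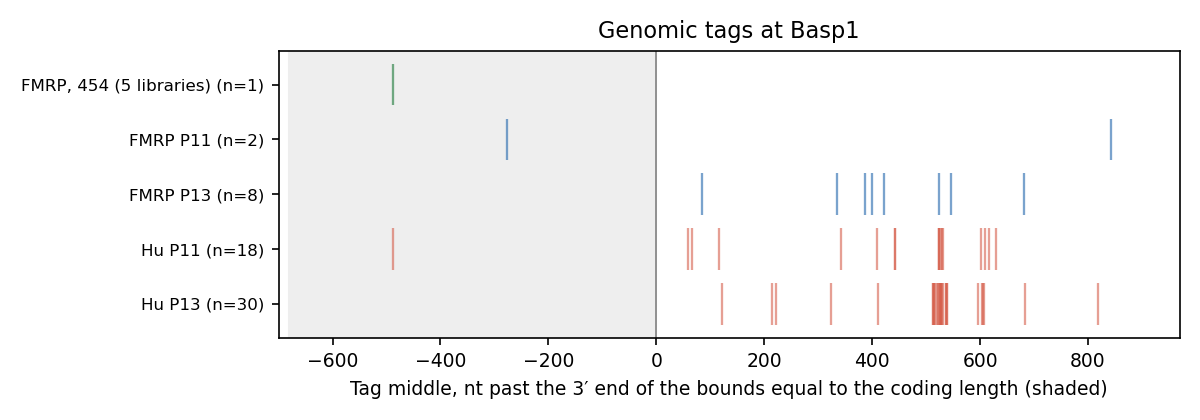
Middles of genomic tags at Basp1 on the strand of the gene, by distance in nt from the 3′ end of the bounds that equal the coding length (shaded), with 1 row per Illumina library and 1 for the 454 libraries. The Hu rows (18 and 30 tags) lie almost wholly to the right of 0 and are densest between 512.5 and 612.5 nt.

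The stathmins were unlike each other. Stmn1, the widely expressed stathmin, gave 0 tags in all 7 FMRP libraries, 1 tag in the P11 Hu library and 0 in the P13 Hu library, too few for any comparison. In the authors' deposited table its log2 value in neurons was 13.69, above that of 99.98% of 15897 genes, and its exon array intensity was 206.2, above that of 66.58% of genes. It lies at chr4:134024326-134029754 (mm9).

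Stmn2, the neuron-specific stathmin also called SCG10, gave 33 and 15 Hu tags at P11 and P13 against 0 and 9 FMRP tags. The 454 libraries held 1 tag, in the P15 library. In CPM the Hu levels were 1275 and 300.9 and the FMRP levels 0 and 204.2, so the groups did not overlap but the P13 pair lay close together, at 1.47 times. Log2 FMRP over Hu was -2.31 (SE 1.09, adjusted p = 0.0878, edgeR), which did not pass. With the shared lysate as a block it passed, at -2.13 (adjusted p = 0.0347). Its fullest Hu window differed between the lysates: the window from 1425 to 1525 nt held 16 of 33 tags at P11 and 1 of 15 at P13. Another place did repeat. The window fullest at P13, from 921.5 nt, held 33.33% of the P13 tags and 27.27% of the P11 tags. The gene lies at chr3:8509527-8561604 (mm9).

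Dpysl2 was the member with the most FMRP tags and also the one with the most Hu tags. The 454 libraries gave 7 tags (P14 monoclonal), 6 (P14 polyclonal), 6 (P15), 8 (P25 monoclonal) and 4 (P25 polyclonal), and the Illumina FMRP libraries 12 at P11 and 46 at P13. The Hu libraries gave 93 at P11 and 206 at P13. It was the only member with a tag in every library. As levels, FMRP ran from 447.9 CPM (P11 Illumina) to 1592 CPM (P14 monoclonal), and Hu stood at 3594 and 4133 CPM, above all 7. Monoclonal and polyclonal levels were 1592 and 918.4 at P14 and 1037 and 711.1 at P25. Hu over FMRP was 8.03 within the P11 lysate and 3.96 within the P13 lysate. Log2 FMRP over Hu was -2.02 (SE 0.64, adjusted p = 0.0229, edgeR). The call depended on the P11 FMRP library, without which log2 was -1.08 (adjusted p = 0.297), and was lost with DESeq2 (-1.77, adjusted p = 0.0711) and with no filter (-2.15, adjusted p = 0.086).

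Dpysl2 and Ncam1 had the lowest FMRP p-values of the members in the authors' deposited table. In the authors' deposited table the p of Dpysl2 was 1.61e-08 with an FDR of 2.79e-06, and that of Ncam1 7.83e-05 with an FDR of 0.00347. In the authors' deposited table the other members had a p between 0.0848 (Basp1) and 1.0 (Stmn1). Per length, Dpysl2 had 18.3 FMRP tags per kb of deposited transcript length, more than 99.49% of 17970 genes, and 67.5 Hu tags per kb. Its exon array intensity in the authors' deposited table was 5369, above that of 99.92% of genes. How this intensity relates to the tags was not tested. Ncam1 had 4.30 FMRP tags per kb and Marcks 3.14, and their Hu tags per kb were 25.9 and 41.2. The FMRP values sum the authors' counts over 7 libraries, and the Hu values sum the transcript tags of 2 libraries. Neither is scaled to library depth, so FMRP and Hu values per kb cannot be read against each other. By mean CPM Dpysl2 ranked 11 in the Hu libraries and 202 in the Illumina FMRP libraries, so that it was common with both antibodies. Dpysl2 lies at chr14:67421701-67487437 (mm9).

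Ncam1, the neural cell adhesion molecule, had its highest level in the P11 Hu library, where it led the members. Its Hu tags numbered 164 at P11 and 101 at P13, its Illumina FMRP tags 14 and 22, and its 454 tags 0 (P14 monoclonal), 3 (P14 polyclonal), 1 (P15), 2 (P25 monoclonal) and 0 (P25 polyclonal). Hu levels were 6339 and 2026 CPM and Illumina FMRP levels 522.5 and 499.1 CPM. The FMRP pair lay close together and the Hu pair far apart, and the groups did not overlap. Log2 FMRP over Hu was -2.73 (SE 0.70, adjusted p = 0.00934, edgeR), with Hu over FMRP ratios of 12.1 within the P11 lysate and 4.06 within the P13 lysate. Summed over lysates the ratio was 6.89 (counting interval 4.85 to 10.1) for transcript tags and 4.23 (3.04 to 6.01) for genomic tags inside the gene bounds. Without the P11 Hu library the call was lost (log2 -1.95, adjusted p = 0.106).

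The P11 excess of Ncam1 lay largely in one place. The window from 5701.5 to 5801.5 nt held 106 of 265 Hu tags (40.0%), of which 83 of 164 came from P11 and 23 of 101 from P13. The P11 tags there had 26 start positions and the P13 tags 11. FMRP had 0 of 14 tags in the window at P11 and 4 of 22 at P13. Among the transcripts with at least 50 Hu tags, 69.85% had a smaller share in their fullest window. With 1 tag per start position, the fullest window of Ncam1 held 22.02% of its Hu tags. The window was also the fullest at P13, with 22.8% of that library's tags against 50.6% at P11. Further piles lay at 3456 to 3556 nt (28 tags) and 3646 to 3746 nt (27 tags). Ncam1 has several isoforms, and the tags were placed on 1 transcript. The gene lies at chr9:49310251-49607174 (mm9).

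Cntn1, the GPI-anchored adhesion molecule contactin, was the one member with more FMRP than Hu transcript tags in both lysates. FMRP gave 11 tags at P11 and 5 at P13, Hu gave 1 and 4, and the 454 libraries gave 1 in the P15 library. In CPM the Illumina FMRP levels were 410.5 and 113.4, both above the Hu levels of 38.65 and 80.25. At P13 this rests on 5 against 4 tags, and the share of all genes that separate in this way was not counted. The FMRP over Hu ratio was 3.42 (counting interval 1.20 to 11.9). Cntn1 did not pass the filter, and with no filter its log2 of 1.88 had an adjusted p of 0.402 (edgeR). In the genomic lists, inside its bounds at chr15:91958625-92170542 (mm9), it had 10 and 4 FMRP tags and 2 and 7 Hu tags, an FMRP over Hu ratio of 2.20 with an interval (0.886 to 5.76) that includes equality. An excess of FMRP tags on Cntn1 was thus not separable from counting error there.

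Within a transcript, Hu tags lay nearer the 3′ end than FMRP tags on 5 of the 6 members with at least 5 tags of each on Illumina. Dpysl2 had a median tag middle at 1234.2 nt (P11 FMRP) and 2849 nt (P13 FMRP) from the 5′ end, and at 3290.5 and 3291.5 nt for Hu. The 31 tags of the 454 libraries had their median at 1649.5 nt. Ncam1 had FMRP medians of 3025 and 3515 nt and Hu medians of 5701.8 and 4237 nt; in the P11 library no Hu tag lay before 3415.5 nt, while FMRP tags began at 468 nt. Marcks was the exception, with FMRP medians of 1632.8 (2 tags) and 2280.5 nt and Hu medians of 1873.5 and 1869 nt. On Stmn2 the order held only through P11, since at P13 the FMRP median was 1052 nt and the Hu median 1024.5 nt. Without the P11 Hu library the order held for 3 of 5 members. Few tags stand behind some of these orders: Gap43 had 7 and Stmn2 9 Illumina FMRP tags, and Cntn1 had 5 Hu tags. The share of all genes with this order was not counted, so the order is not shown to be particular to the members. These orders were not tested.

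**Figure D4:**
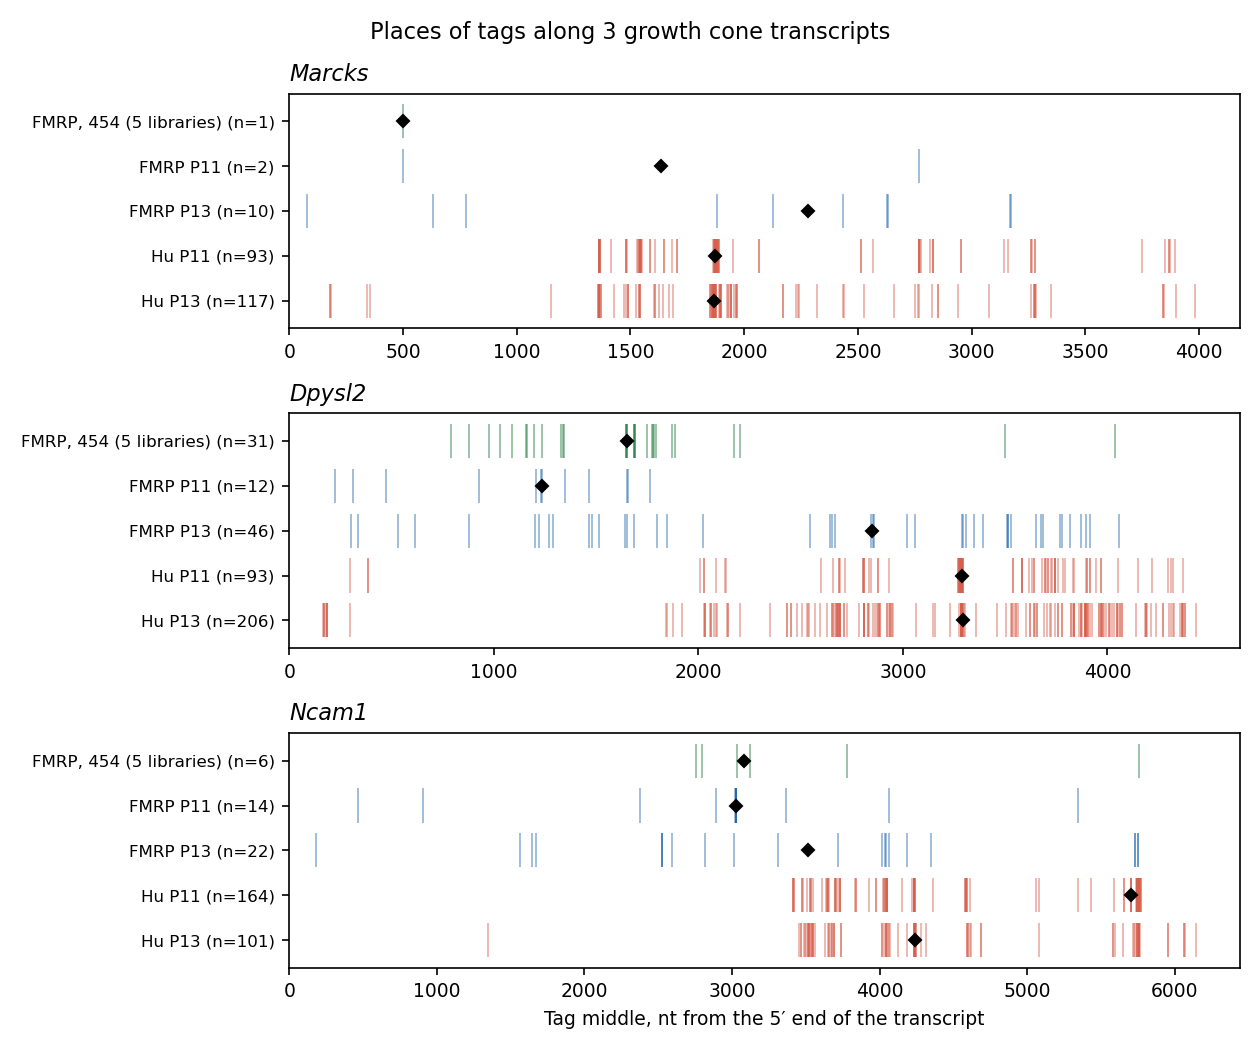
Middles of tags along Marcks, Dpysl2 and Ncam1 in nt from the 5′ end of the transcript (horizontal axis), with 1 row per Illumina library and 1 for the 5 454 libraries, each line 1 tag and each diamond the row's median. On Dpysl2 the P11 FMRP median (1234.2 nt) lies far before both Hu medians (3290.5 and 3291.5 nt), and the P13 FMRP tags cover both regions.

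The P13 FMRP library held more of its tags at Hu places than the P11 library did, on these mRNAs and on others. This measure was chosen after the values were seen. Of the FMRP tags on Marcks, Dpysl2 and Ncam1, 4 of 28 at P11 (14.29%, Wilson 95% interval 5.70% to 31.5%) and 50 of 78 at P13 (64.1%, 53.0% to 73.9%) overlapped a Hu tag by at least 1 nt. On the other 269 transcripts with at least 50 Hu tags the shares were 19.45% at P11 and 44.47% at P13. For Dpysl2 alone they were 1 of 12 and 33 of 46. Each FMRP library was set against the tags of both Hu libraries together.

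Summed over the 7 FMRP libraries, coding sequence held a smaller share of the FMRP tags on these mRNAs than of those on all genes, mainly through the Illumina libraries. In the authors' counts, 85 of 188 FMRP tags on members lay in coding sequence (45.21%, Wilson 95% interval 38.3% to 52.4%), against 77.06% of the tags of all genes. The share was 73.81% in the 454 libraries (31 of 42; all genes 83.16%), 59.52% at P11 (25 of 42; all genes 81.62%) and 27.88% at P13 (29 of 104; all genes 69.69%). Without the P13 library it was 66.67%. The interval of the 454 share (58.9% to 84.7%) included the share of all genes, and in the P15 library the members' share was the higher one (11 of 12, 91.67%, against 83.46%).

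Members differed widely. Cntn1 had 14 of 15 FMRP tags in coding sequence (93.33%, 70.2% to 98.8%), which make up 34.36% of its length. Dpysl2 had 44 of 81 (54.32%, 43.5% to 64.7%; 38.79% of length), with 21 of 26 in the 454 libraries, 7 of 7 at P11 and 16 of 48 at P13. Ncam1 had 15 of 44 (34.09%, 21.9% to 48.9%; 33.78% of length) and Marcks 3 of 16 (18.75%, 6.59% to 43.0%; 18.25% of length), both close to the coding share of length. Basp1 had 2 of 13 (15.38%, 4.33% to 42.2%; 42.25% of length), Gap43 4 of 9 and Stmn2 2 of 9. Cntn1 and Marcks had intervals that did not overlap. Their tags came mostly from different Illumina libraries: 10 of 15 from P11 for Cntn1 and 12 of 16 from P13 for Marcks. The coding share of all genes differed between these libraries (81.62% at P11 and 69.69% at P13). Differences between members in the summed shares thus cannot be told apart from differences between libraries. Shares of length use the deposited length, which does not match the transcript the tags were placed on. For Ncam1 it is 10236 nt, while no middle of a transcript tag lay past 6142 nt. How close a member lies to its coding share of length thus depends on that length.

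**Figure D5:**
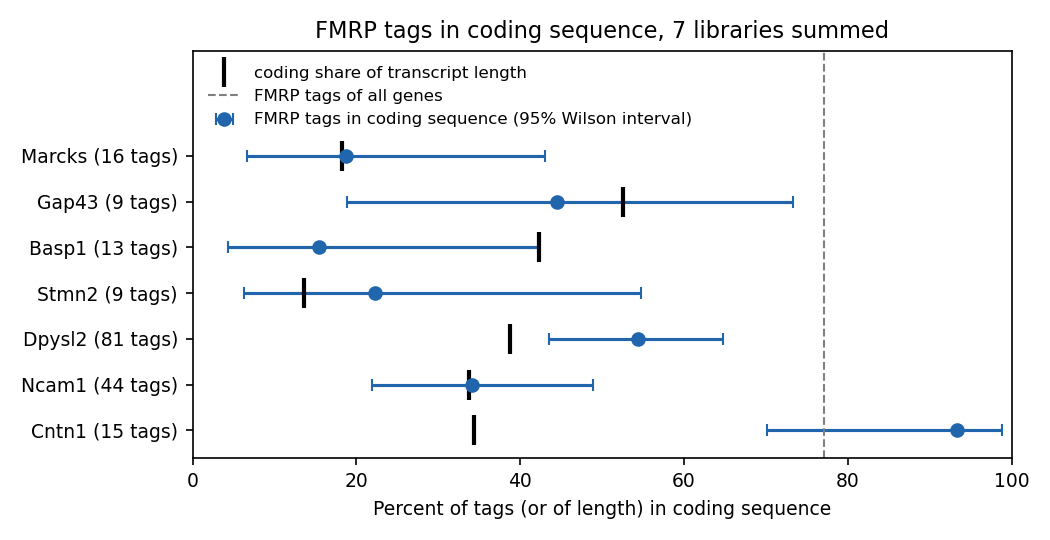
Percent of FMRP tags in coding sequence for the 7 members with at least 9 tags, summed over 7 FMRP libraries (points, with 95% Wilson intervals). Black bars are the coding share of the deposited transcript length, and the dashed line is the share of FMRP tags over all genes (77.06%). Cntn1 (93.33%) lies on the far side of the dashed line, and Marcks (18.75%) and Ncam1 (34.09%) lie at their coding share of deposited length.

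Other genes of growth cones and neurite outgrowth were counted in the same fit. Of a list of 48 such genes, 42 had an Illumina tag and 15 were tested. Of these 15, 9 were called higher in Hu, 0 higher in FMRP and 6 were not called. Among all genes tested, 27.3% were called higher in Hu and 33.6% higher in FMRP. Of the 15, 9 reached the filter's minimum in both Hu libraries and not in both FMRP libraries, among them every called gene but Dclk1, so the direction of the calls is in part set by the filter. The median log2 FMRP over Hu was -1.85, against -0.16 over all genes tested. With no filter, 6 of 42 were called higher in Hu and the median was -0.44. Nrn1, a small GPI-anchored protein that promotes neurite growth, had 0 and 3 FMRP tags and 21 and 38 Hu tags (log2 -3.85, SE 0.95, adjusted p = 0.0078, edgeR). Cfl1, the actin-severing protein cofilin, had 0 and 4 FMRP tags and 36 and 30 Hu tags (log2 -3.78, SE 1.02, adjusted p = 0.012). The other called genes were Dcx, Pfn1, Pfn2, Rhoa, Chl1, Dclk1 and Rac1. At an unadjusted p under 0.05, 1 gene of the list was higher in FMRP. The Hu count was 7 with DESeq2, which called 0 higher in FMRP, and it fell to 1 without the P11 FMRP library. Genes of the list were called higher in FMRP in 4 settings: 2 without the P11 FMRP library, 2 with DESeq2 size factors, 1 without the P13 FMRP library and 1 without the P13 Hu library. Without the P13 FMRP library, the P11 Hu library and the P13 Hu library the Hu counts were 5, 5 and 4. Of 15 textbook Hu targets, 4 were tested and 3 were called higher in Hu: Nrn1, which both lists hold, and the Hu family's own mRNAs Elavl1 (log2 -3.51) and Elavl4 (log2 -2.22). All 4 reached the filter's minimum in both Hu libraries and not in both FMRP libraries, so that their count, too, is only a description beside the 27.3% of all genes tested. Without the P11 FMRP library 0 of 5 tested were called.

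Over the 9 libraries, the genes whose level moved most like the summed members were Tubb5, Skp1, Cbx5, R3hdm4 and Actb. Their root mean square difference in log2 CPM from the members' profile was 0.38, 0.38, 0.40, 0.45 and 0.46, against a median of 1.54 over 274 genes compared. Over the 7 FMRP libraries these genes had 21, 16, 16, 14 and 87 tags, and over the Hu libraries 85, 98, 106, 132 and 500. Except for Actb, their FMRP levels thus rest on few tags per library.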

How the data were processed

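Tags from 9 libraries were analysed. The submitters' processing notes name Novoalign and mm9, with no version. The authors deposited, per library, unique tags placed on the genome and on RefSeq transcripts; the placing of reads with several matches is not stated in those notes. The value beside each tag is, going by the values, a read count in the 454 lists deposited by the authors and a score of no stated meaning in the Illumina lists deposited by the authors; each line was counted as 1 tag. The authors' deposited gene table gives FMRP tag counts over whole transcripts and over coding sequence, a p-value and an FDR (a score, since it exceeds 1), an exon array intensity and a log2 value in neurons, with no method for them given in the sources used here.

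Transcript tags were summed to 11618 genes and given as CPM of each library's transcript tags. Of their accessions, 9842 were named from a RefSeq table, 1573 from the authors' table and 207 kept. FMRP and Hu were compared over 4 Illumina libraries with edgeR 4.0.16 (R 4.3.3, TMM, filterByExpr, Benjamini-Hochberg threshold 0.05), which was tested on simulated data. Each SE given with an edgeR log2 is approximate: the size of the log2 divided by the square root of the test's F value. DESeq2 1.42.0 was an alternative. Genomic tags were counted on the gene's strand, taken from the reference or, where it gave none (6 members), as the strand with more tags. Windows are 100 nt wide and hold tag middles. Positions are in nt and not relative to length, as had been planned, because the deposited length does not match the transcript the tags were placed on. No coding bounds or transcript sequence of this build were used.

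The P11 and P13 lysates were each divided between FMRP and Hu, per the series text, which pairs the libraries. Over 1015 genes the P11 minus P13 differences of FMRP and Hu correlated with r = 0.104.

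Named were all 9 members, the 2 called genes of each list with the largest log2 in each direction, and the 5 other genes with at least 100 tags whose profile over 9 libraries was most like that of the members. The members and lists were chosen with earlier results of these data known. For Marcks and Ncam1 the direction was among these, so it is no independent support.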

Additional observations from a re-analysis of the deposited data

How the results depend on the processing

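The count of members called higher in Hu (4) was 2 to 4 when 1 Illumina library was left out, with 2 without the P11 Hu library. With the lysate block 5 members passed, Stmn2 being the one added, and no other member's call changed with the block. Marcks passed in 12 of 12 alternatives (log2 -5.99 to -2.87), Ncam1 in 11 of 12 (-4.76 to -1.95), Dpysl2 in 9 of 12 (-4.29 to -1.08), Marcksl1 in 6 of 8 (-6.73 to -2.64) and Stmn2 in 5 of 10 (-7.51 to -1.03). No value reversed. Over all genes, calls higher in FMRP (341) were 214 to 429 with 1 library left out and 78 of 202 tested with the 454 FMRP libraries added and platform as a term. Calls higher in Hu (277) were 155 with no filter, 128 with DESeq2, 68 with the platform term and 77 to 204 with 1 library left out. With DESeq2 size factors the calls were 382 higher in FMRP and 238 in Hu, and with library totals 337 and 366; the median log2 of all genes moved from -0.16 to 0.21 and -0.38.

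The members' coding share of FMRP tags (45.21%) was 73.81% on 454, 36.99% on Illumina and 41.1% to 66.67% with 1 library left out. The share of Hu tags in the fullest windows (29.13% over 6 members) was 32.72% with 200 nt windows, 21.24% with 1 tag per start position, and 23.33% to 39.55% with 1 library left out. The count of members with the Hu median past the FMRP median (5 of 6) was 3 to 4 with 1 library left out: 4 of 5 without the P11 FMRP or the P13 Hu library, 3 of 3 without the P13 FMRP library, where fewer members qualify, and 3 of 5 without the P11 Hu library; leaving out libraries was added for this count and for the coding share after seeing the data. Where fewer libraries or other genes enter the fit, the alternative itself differs in what it tests; otherwise the cause was not tested. Genomic positions along the transcript were not run, since they count introns. Few tags limit Gap43, Stmn1 and Cntn1.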

Other observations

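Inside the gene bounds, genomic tags on the antisense strand were few: 4 at Ncam1, 3 at Gap43, 1 at Marcks and 0 at the other members, over 9 libraries. Per kb of deposited length, Basp1 ranked second among the members for FMRP tags in the authors' counts (8.07 per kb, above 97.84% of genes), ahead of Gap43 (6.92). Of its 13 tags in those counts, 11 lay outside coding sequence. The transcript lists, which held 0 Hu tags on Basp1, held 2 FMRP tags over 7 libraries. The genomic lists held 48 Hu tags and 10 Illumina FMRP tags.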
